A study of Mus musculus with 13 samples.

Results

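The 10 genes described here encode members of the BCL2 family that set whether a cell lives or undergoes apoptosis. They were chosen by symbol from the 39171 genes in a table of FPKM (a transcript level in sequenced fragments, scaled to the length of the transcript and the fragments of the library). All 10 were found. Of these, 6 encode survival proteins (Bcl2a1a, Bcl2a1b, Bcl2a1d, Bcl2, Bcl2l1 and Mcl1), 2 encode the pore-forming death effectors (Bax and Bak1), and 2 encode BH3-only death activators (Bcl2l11 and Bbc3). The study sorted microglia and astrocytes from spinal cords of young C57BL/6 mice that lacked Il33 or were littermate controls, and the comparison asks what loss of this cytokine does to each cell type. Il33 encodes interleukin-33, an alarm cytokine that astrocytes of the cord make. The 4 groups were Il33 KO microglia (3 libraries), WT microglia (3 libraries), Il33 KO astrocytes (4 libraries) and WT astrocytes (3 libraries). All microglia came from postnatal day 12 mice and were sorted by CD11b, a surface protein that neutrophils, monocytes and border macrophages carry too. Astrocytes were sorted by green fluorescent protein driven by Aldh1l1, so their donors carried that reporter in both genotypes. KO astrocytes library 2 and WT astrocytes library 3 came from day 9, and the other astrocyte libraries from day 12. The deletion is carried by the whole animal, so KO microglia and KO astrocytes both come from mice without Il33. The sex of the mice and any pooling of animals are not given in the labels. The submitters call the libraries of each group biological replicates.

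In healthy cells the survival proteins bind BAX, BAK and the BH3-only proteins and keep the outer mitochondrial membrane closed. Stress or loss of growth signals raises BH3-only proteins such as BIM (from Bcl2l11) and PUMA (from Bbc3, a target of p53), which free BAX and BAK to open pores that release cytochrome c and start the caspases. A1, the product of the Bcl2a1 genes, is a survival protein of blood and immune cells whose transcription is driven by NF-kB. MCL1 is a short-lived protein, and BCL-XL (from Bcl2l1) and BCL2 itself are longer-lived. Transcript levels, which are all that was measured here, do not give the levels of these proteins.

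In the mouse, A1 is encoded by near-identical gene copies on chromosome 9, and their promoters are shown because reads cannot be assigned freely among such copies. Each window runs from 250 bases before to 50 bases after the start site in RefSeq on build GRCm38.p6, read 5′ to 3′ on the gene's strand. All 10 genes had at least 1 such window, 15 in all. Capitals mark the motif GAGGAAGT, which the myeloid factor PU.1 binds. The windows are chr9:88956670-88956969 (plus strand) for Bcl2a1a, chr9:89199023-89199322 (plus strand) for Bcl2a1b and chr9:88731801-88732100 (minus strand) for Bcl2a1d.
Bcl2a1a: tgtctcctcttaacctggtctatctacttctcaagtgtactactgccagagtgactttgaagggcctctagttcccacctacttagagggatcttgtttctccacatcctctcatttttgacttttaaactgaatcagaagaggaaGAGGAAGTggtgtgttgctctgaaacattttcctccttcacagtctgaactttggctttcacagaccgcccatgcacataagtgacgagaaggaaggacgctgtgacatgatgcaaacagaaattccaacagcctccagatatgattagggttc
Bcl2a1b: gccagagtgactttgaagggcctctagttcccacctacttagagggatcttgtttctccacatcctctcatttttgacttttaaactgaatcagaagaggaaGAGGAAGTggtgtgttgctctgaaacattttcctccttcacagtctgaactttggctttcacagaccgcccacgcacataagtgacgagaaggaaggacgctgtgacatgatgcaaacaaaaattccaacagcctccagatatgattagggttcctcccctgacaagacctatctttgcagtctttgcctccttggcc
Bcl2a1d: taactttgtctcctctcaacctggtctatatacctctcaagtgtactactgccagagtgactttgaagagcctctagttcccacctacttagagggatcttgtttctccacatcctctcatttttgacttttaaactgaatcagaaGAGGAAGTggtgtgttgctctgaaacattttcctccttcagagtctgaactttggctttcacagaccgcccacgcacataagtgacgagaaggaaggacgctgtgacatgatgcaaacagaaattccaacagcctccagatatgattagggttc
The Bcl2a1a and Bcl2a1b windows were identical at 99.2% of 256 aligned bases, Bcl2a1a and Bcl2a1d at 96.0% of 300 and Bcl2a1b and Bcl2a1d at 96.5% of 256. The PU.1 motif began at position -104 from the start site in Bcl2a1a and Bcl2a1d and at -148 in Bcl2a1b. Just upstream, each window also held TGAATCA, at -120, -114 and -164 in Bcl2a1a, Bcl2a1d and Bcl2a1b. It matches TGANTCA, a relaxed AP-1 pattern, but not the usual AP-1 site, which has C or G at the N. Motifs were searched on both strands, and the letters were chosen after the sequences had been seen. Of 32851 RefSeq promoter windows of this length, 3.20% held the PU.1 motif and 7.81% held the relaxed AP-1 pattern. A match describes letters in a window and is not shown to be a bound site.

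The windows of Mcl1 and Bcl2 are shown for contrast, because Mcl1 was the most abundant survival gene and Bcl2 was the survival gene that was higher in astrocytes. They lie at chr3:95658471-95658770 (plus strand) and chr1:106714241-106714540 (minus strand).
Mcl1: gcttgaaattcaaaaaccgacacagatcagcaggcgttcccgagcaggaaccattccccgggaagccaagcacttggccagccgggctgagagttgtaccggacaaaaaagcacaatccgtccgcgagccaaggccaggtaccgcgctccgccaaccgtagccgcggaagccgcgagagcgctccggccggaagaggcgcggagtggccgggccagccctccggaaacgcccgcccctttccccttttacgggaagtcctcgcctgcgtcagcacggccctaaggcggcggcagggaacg
Bcl2: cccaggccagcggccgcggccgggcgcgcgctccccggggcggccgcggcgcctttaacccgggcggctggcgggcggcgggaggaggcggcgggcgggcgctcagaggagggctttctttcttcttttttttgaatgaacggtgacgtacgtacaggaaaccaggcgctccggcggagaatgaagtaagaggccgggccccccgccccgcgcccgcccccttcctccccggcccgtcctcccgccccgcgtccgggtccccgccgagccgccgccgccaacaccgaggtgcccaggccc
Neither held the PU.1 or AP-1 motif, the CRE motif TGACGTCA, the E-box CACGTG or the kappaB motif of NF-kB, and the windows of Bcl2l11 held none either. The kappaB motif, present in 4.51% of all windows, was found in 1 window each of Bcl2l1 and Bbc3. The E-box, present in 7.15% of all windows, was found in Bax and Bbc3, and the PU.1 motif was found on the other strand in Bak1. These letters say nothing of whether a factor acts on a gene from elsewhere.

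The identity of the libraries was checked on marker genes. Il33 was at 2.28, 2.05, 0.424 and 0.733 FPKM in KO astrocytes, against 96.3, 113 and 108 FPKM in WT astrocytes. The 8 microglial markers summed to 6981 to 7716 FPKM in microglia and to 8.68 to 51.1 FPKM in astrocytes, and the 8 astrocyte markers to 5957 to 10538 FPKM in astrocytes. Of the latter, Slc1a2 was listed at 0 in 1 KO and 1 WT astrocyte library. It reached 3352 FPKM in another KO and 3996 FPKM in another WT astrocyte library, and the cause was not tested. The 7 oligodendrocyte markers summed to 4269 to 7833 FPKM in astrocytes and to 1030 to 2522 FPKM in microglia, so that transcripts of these myelinating cells were present in every library. Relative to the deepest library (KO microglia library 2), depth was 73.3% to 85.2% in the other microglia and 33.8% to 62.9% in astrocytes. WT microglia library 3 stood apart from the other WT microglia. Xist, the transcript of the inactive X chromosome, was at 0.713 FPKM there, against 268 and 283 FPKM in the other WT microglia and below 0.376 FPKM in the KO microglia. In Xist this library was thus like the KO microglia. Genotype and Xist level therefore largely coincide in microglia, and without this library they coincide fully and cannot be told apart. The low values of Bax and Bak1 described below belong to the same library. Fewer cells of a type and less RNA per cell cannot be told apart in such bulk libraries.

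Microglia and astrocytes differed in the transcript levels of several members of the family, and the plot of all levels by library shows this. The Bcl2a1 genes and Bbc3 were at or near 0 in astrocytes, Bcl2l11 and Mcl1 were higher in microglia, and Bcl2 was higher in astrocytes. These differences were tested with limma on log2(FPKM + 1) with age as a covariate and all 13 libraries in 1 model, and a call needed a Benjamini-Hochberg adjusted p under 0.05 over all genes. In KO microglia against KO astrocytes, 6 of 9 tested genes were higher and 2 lower, where 31.9% of all 16258 genes were called higher and 25.1% lower. In WT microglia against WT astrocytes, 5 were higher and 2 lower, where 29.1% of all genes were called higher and 24.5% lower. Genes needed a mean of at least 1 FPKM to be tested, and Bcl2a1a, Bcl2a1b and Bbc3 passed through their level in microglia alone, so the counts, and the calls and sizes for these 3 genes, are a description. Bcl2a1d did not pass.

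**Figure D1:**
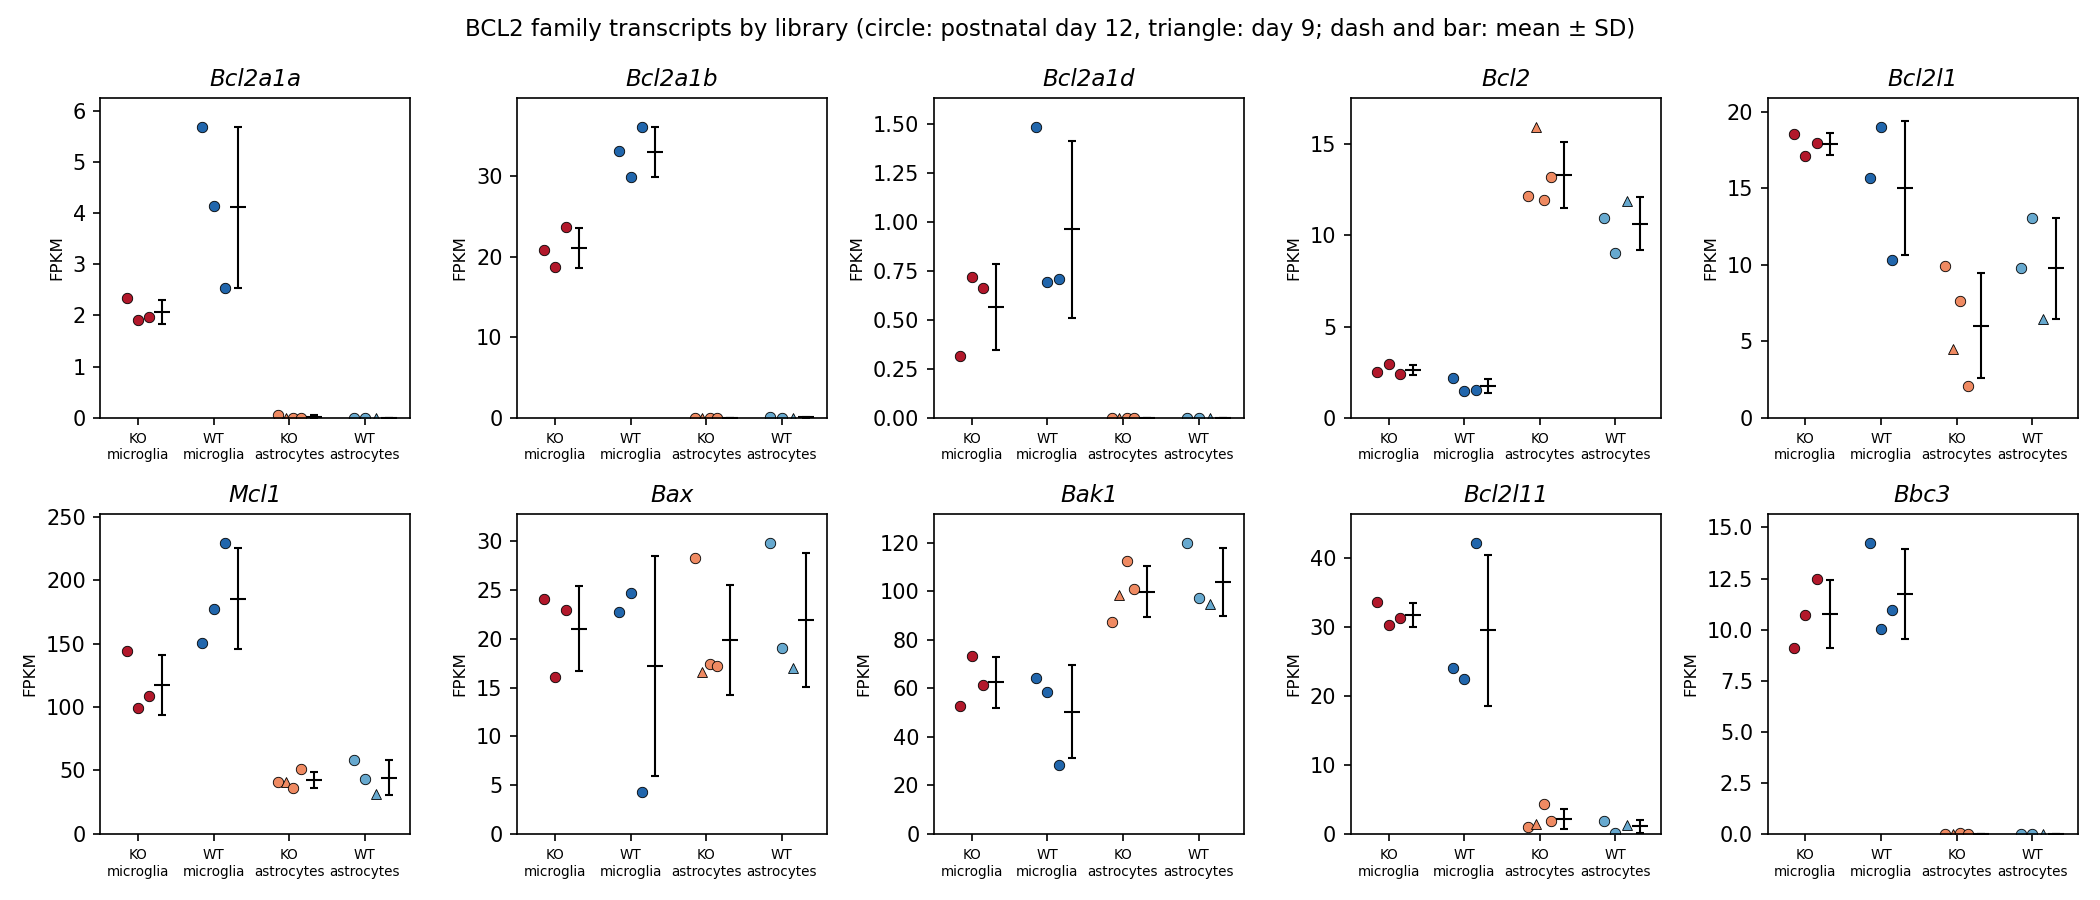
Level of each of the 10 genes (y axis, FPKM, linear, a separate scale per gene) in every library of the 4 groups (x axis). Circles are day 12 and triangles day 9 libraries, and the dash and bar give mean ± SD. Mcl1 lies at 99.1 to 229 FPKM in microglia and at 31.3 to 58.3 FPKM in astrocytes, while the 3 Bcl2a1 genes and Bbc3 lie at or near 0 in astrocytes.

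Among the survival genes, Mcl1 was the most abundant in every library. It was at 144, 99.1 and 108 FPKM in KO microglia and 150, 177 and 229 FPKM in WT microglia, against 40.8, 41.2, 35.7 and 50.8 FPKM in KO astrocytes and 58.3, 43.4 and 31.3 FPKM in WT astrocytes. All 6 microglia libraries lay above all 7 astrocyte libraries. The difference on the log2(FPKM + 1) scale was 1.37 (SE 0.24, limma adjusted p = 0.000577) between KO microglia and KO astrocytes and 1.95 (SE 0.26, adjusted p = 9.13e-05) between WT microglia and WT astrocytes.

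Bcl2a1b carried most of the A1 transcript. It was at 20.8, 18.7 and 23.6 FPKM in KO microglia and 33.2, 29.9 and 36.1 FPKM in WT microglia, while 3 of 4 KO astrocyte and 2 of 3 WT astrocyte libraries were listed at exactly 0 and the highest astrocyte value was 0.0526 FPKM. The cell types did not overlap. With astrocytes at or near 0 the size of the difference is set by the pseudocount, at 4.45 in KO and 5.06 in WT with a pseudocount of 1 and 7.68 and 8.12 with 0.1, and it is given as a description. Bcl2a1a was at 1.91 to 2.34 FPKM in KO microglia and 2.53 to 5.69 FPKM in WT microglia, with 6 of 7 astrocyte libraries at 0 and KO astrocytes library 1 at 0.0551 FPKM. Bcl2a1d stayed at 0.313 to 0.719 FPKM in KO microglia and 0.691 to 1.48 FPKM in WT microglia, and was listed at 0 in every astrocyte library. Bcl2a1b made up 87.7% to 90.0% of the summed level of these copies in KO microglia and 82.2% to 91.8% in WT microglia. That split is uncertain: of all 50-base words of the annotated transcripts, 69.0% of those of Bcl2a1a, 57.6% of Bcl2a1b and 79.5% of Bcl2a1d also occur in another Bcl2a1 gene. Levels of the copies are therefore given summed as well. Gm29094, annotated as a protein-coding gene on the same strand, shares 401 of the 817 exonic bases of Bcl2a1b. Its identifier is absent from the deposited FPKM, and how reads in those bases were counted is not stated.

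Bcl2 ran the other way. It was at 2.51, 2.92 and 2.39 FPKM in KO microglia and 2.19, 1.45 and 1.54 FPKM in WT microglia, against 12.2, 16.0, 11.97 and 13.2 FPKM in KO astrocytes and 10.97, 9.05 and 11.9 FPKM in WT astrocytes. Every microglia library lay below every astrocyte library. The difference was -1.91 (SE 0.18, limma adjusted p = 5.95e-06) between KO microglia and KO astrocytes and -2.001 (SE 0.19, adjusted p = 8.89e-06) between the WT groups. An antisense gene, D630008O14Rik, shares 558 exonic bases with Bcl2 and was itself at a mean of 0.699 and 0.233 FPKM in KO and WT microglia and 1.90 and 1.34 FPKM in KO and WT astrocytes. Whether the counting used strand is not stated, so reads in those bases cannot be divided between the genes.

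Bcl2l1, which encodes BCL-XL, differed less between cell types. It was at 18.5, 17.1 and 18.0 FPKM in KO microglia, against 9.90, 4.51, 7.62 and 2.04 FPKM in KO astrocytes. These groups did not overlap, and the difference of 1.46 (SE 0.41) was called at an adjusted p of 0.0104 with limma. In the WT groups it was at 15.7, 19.0 and 10.3 FPKM in microglia, against 9.82, 13.0 and 6.45 FPKM in astrocytes. These overlapped, and the difference of 0.42 (95% interval -0.56 to 1.40) had a limma adjusted p of 0.444. Whether the step differs between genotypes was tested by the interaction given below, and it was not called.

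The death effectors split. Bak1 was at 52.7, 73.5 and 61.5 FPKM in KO microglia and 64.2, 58.6 and 28.4 FPKM in WT microglia, against 87.4, 98.7, 113 and 101 FPKM in KO astrocytes and 120, 97.3 and 94.6 FPKM in WT astrocytes. As deposited, every microglia library lay below every astrocyte library, with differences of -0.70 (SE 0.27, limma adjusted p = 0.0494) in KO and -1.14 (SE 0.30, adjusted p = 0.00803) in WT. These calls hang on the scale: the protein-coding genes summed to 379342 to 433760 FPKM in microglia and 535314 to 919315 FPKM in astrocytes, and when each library was scaled to an equal protein-coding sum, the Bak1 difference turned to 0.16 (limma adjusted p = 0.698) in KO and shrank to -0.35 (adjusted p = 0.416) in WT. That scaling moved the median of all genes to 1.05 in KO and 0.98 in WT, against 0.24 and 0.21 as deposited. The Bak1 call in KO also ended on leaving out any single KO library, with adjusted p between 0.0546 and 0.150. Without WT microglia library 3 the WT difference was -0.78 and still called. Ggnbp1, on the other strand, shares 437 exonic bases with Bak1 and was at a mean of 5.31 to 8.62 FPKM in the 4 groups.

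Bax did not separate the cell types. It was at 24.1, 16.1 and 22.9 FPKM in KO microglia and 22.7, 24.7 and 4.29 FPKM in WT microglia, against 28.3, 16.6, 17.4 and 17.2 FPKM in KO astrocytes and 29.8, 19.0 and 17.005 FPKM in WT astrocytes. Groups overlapped in both genotypes. The limma difference was 0.0011 (95% interval -1.12 to 1.13) in KO and -0.72 (-1.94 to 0.51) in WT, and without WT microglia library 3 the WT value was 0.025. Gm45808, on the same strand, shares 192 exonic bases with Bax, and its identifier is absent from the deposited FPKM.

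The BH3-only genes lay higher in microglia than in astrocytes in every library. Bcl2l11 was at 33.5, 30.2 and 31.3 FPKM in KO microglia and 24.1, 22.4 and 42.1 FPKM in WT microglia, against 0.922, 1.38, 4.26 and 1.92 FPKM in KO astrocytes and 1.88, 0.118 and 1.24 FPKM in WT astrocytes. The cell types were far apart, with differences of 3.48 (SE 0.42, limma adjusted p = 4.62e-05) in KO and 3.91 (SE 0.46, adjusted p = 4.13e-05) in WT. Bbc3 was at 9.12, 10.7 and 12.5 FPKM in KO microglia and 14.2, 10.04 and 10.9 FPKM in WT microglia, while 6 of 7 astrocyte libraries were listed at 0 and KO astrocytes library 3 held 0.0199 FPKM. Its difference, again a description, was 3.54 in KO and 3.66 in WT with a pseudocount of 1, and 6.68 and 6.86 with 0.1.

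**Figure D2:**
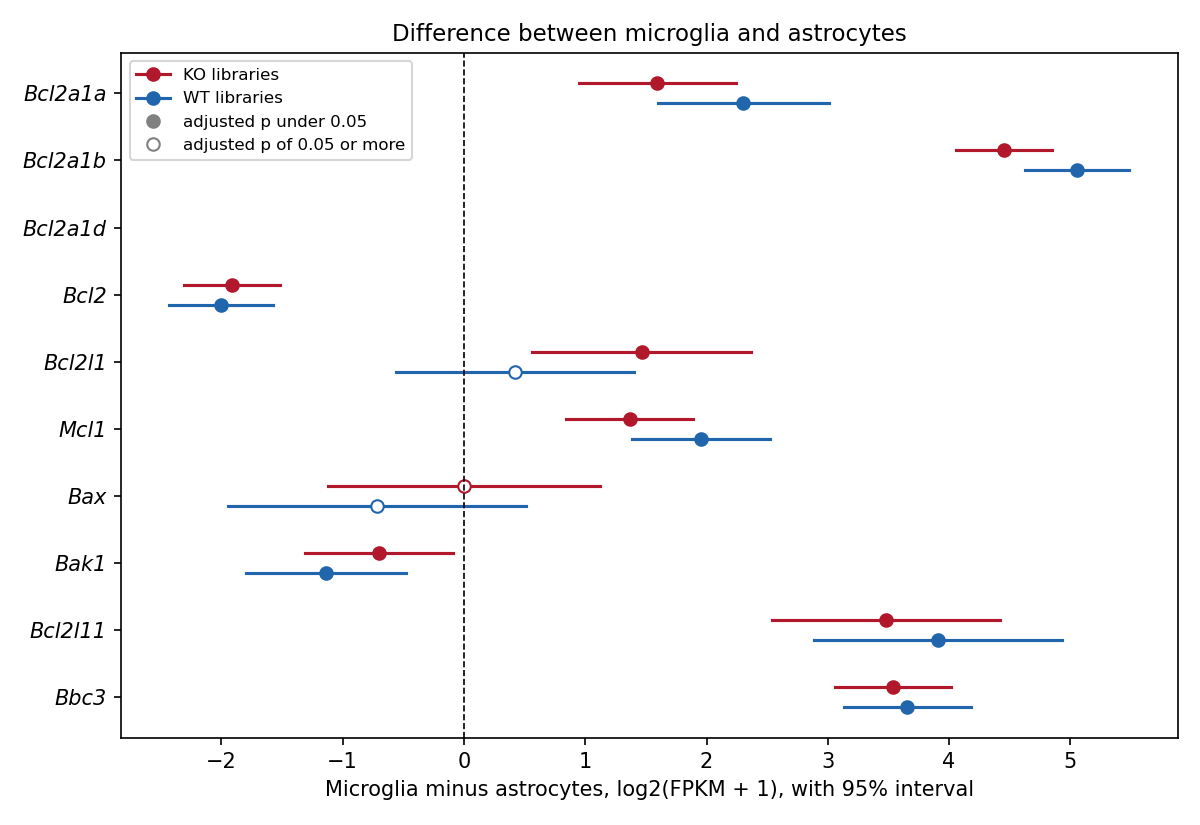
Difference between microglia and astrocytes (x axis, microglia minus astrocytes on log2(FPKM + 1), limma estimate with its 95% interval) for each gene (y axis), in KO libraries (red) and WT libraries (blue). Filled circles have an adjusted p under 0.05, which for Bcl2a1a, Bcl2a1b and Bbc3 is a description. Bcl2a1b, Bcl2l11 and Bbc3 lie above 3, Bcl2 lies near -2, Bax crosses 0, and Bcl2a1d was not tested.

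Within a group, the order of mean levels also differed by cell type. In KO microglia it ran Mcl1 (117 FPKM), Bak1 (62.6), Bcl2l11 (31.7), Bcl2a1b (21.1), Bax (21.1), Bcl2l1 (17.9), Bbc3 (10.8), Bcl2 (2.61), Bcl2a1a (2.07) and Bcl2a1d (0.565), and neighbours overlapped across libraries only from Bcl2a1b to Bcl2l1. In WT microglia Mcl1 (185 FPKM) lay clear of Bak1 (50.4), and the 6 genes from Bak1 to Bbc3 overlapped neighbour by neighbour. In astrocytes Bak1 came first, at 99.97 FPKM in KO and 104 FPKM in WT, followed without overlap by Mcl1, Bax and Bcl2. Bcl2 and Bcl2l1 overlapped in WT astrocytes, and Bcl2l1 and Bcl2l11 in KO astrocytes.

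Between KO and WT microglia no family member passed the test. With limma on the 6 microglia libraries, 0 of 9 tested genes were called, where 13 of 15890 genes (0.0818%) were called, and 2 of the 9 had an unadjusted p under 0.05, where 7.95% of all genes did. Without overlap between the genotypes, 3 of the 9 were lower in KO (Mcl1, Bcl2a1b and Bcl2a1a) and 1 was higher (Bcl2), where 7.48% of all genes were lower and 8.41% higher without overlap. The median difference over the 9 genes was 0.15, and over all genes 0.02.

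Mcl1 averaged 117 ± 23.9 FPKM in KO microglia and 185 ± 40.0 FPKM in WT microglia (SD, n = 3 each), a KO to WT ratio of 0.633. The highest KO library, at 144 FPKM, lay just below the lowest WT library, at 150 FPKM. The log2 difference was -0.65 (SE 0.23, 95% interval -1.22 to -0.09), with an unadjusted p of 0.0304 and an adjusted p of 0.591 by limma. Bcl2a1b averaged 21.1 ± 2.46 FPKM in KO microglia and 33.1 ± 3.13 FPKM in WT microglia (SD, n = 3 each), a ratio of 0.637. Its highest KO library, at 23.6 FPKM, lay below its lowest WT library, at 29.9 FPKM. The difference was -0.63 (SE 0.16, 95% interval -1.03 to -0.23), with an unadjusted p of 0.00887 and an adjusted p of 0.533 by limma. Summed over the 3 A1 copies, which depends less on how reads were divided among them, the level was 23.5, 21.4 and 26.3 FPKM in KO microglia, against 40.4, 34.7 and 39.4 FPKM in WT microglia, again without overlap.

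Bcl2a1a was at 2.34, 1.91 and 1.97 FPKM in KO microglia, against 5.69, 4.14 and 2.53 FPKM in WT microglia, and its difference was -0.69 (SE 0.30, limma adjusted p = 0.595). With Xist as a covariate that difference shrank to -0.16, while those of Mcl1 and Bcl2a1b were -0.998 and -0.77. These adjusted values in effect set KO microglia against WT microglia library 3, the only WT microglia library with low Xist. Without WT microglia library 3 the differences of Mcl1, Bcl2a1b and Bcl2a1a were -0.49, -0.56 and -0.94, and none was called. In that fit genotype and Xist level cannot be told apart. Bcl2a1d was at 0.313, 0.719 and 0.662 FPKM in KO microglia, against 1.48, 0.691 and 0.709 FPKM in WT microglia, with overlap. Bcl2 was at a ratio of 1.51, and its difference of 0.41 (SE 0.24) had a limma adjusted p of 0.688. For Mcl1, Bcl2a1b, Bcl2a1a and Bcl2, an exact two-sided permutation test over the 6 libraries gave p = 0.1, the smallest that 3 against 3 libraries allow, so this design cannot reach 0.05. The test was run on each of the 10 genes.

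The authors' deposited table of microglial genes lists 483 genes and includes 1 of the 10. It gives Bcl2a1b a mean of 166 normalised counts in KO and 330.1 in WT, a log2 ratio of WT over KO of 0.94 (0.83 after shrinkage), an adjusted p of 0.0301 and rank 357 by p in the authors' deposited table. The same libraries thus gave this gene a call in the authors' test of counts and none in limma on FPKM. The other 9 genes are not in that table, and none of the 10 is among the 10 genes of the authors' deposited table for astrocytes.

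The death genes overlapped between KO and WT microglia. Bax and Bak1 had differences of 0.56 (95% interval -1.01 to 2.13) and 0.38 (-0.46 to 1.22), and without WT microglia library 3, which held the lowest value of both, these were -0.18 and 0.016. Bcl2l11 had a difference of 0.15 (-0.50 to 0.81) and of 0.43 without that library, Bbc3 of -0.11 (-0.62 to 0.40) and the survival gene Bcl2l1 of 0.28 (-0.32 to 0.87). The limma adjusted p of these 5 genes lay between 0.739 and 0.884. The interval of Bax is wide enough to hold a change in either direction.

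**Figure D3:**
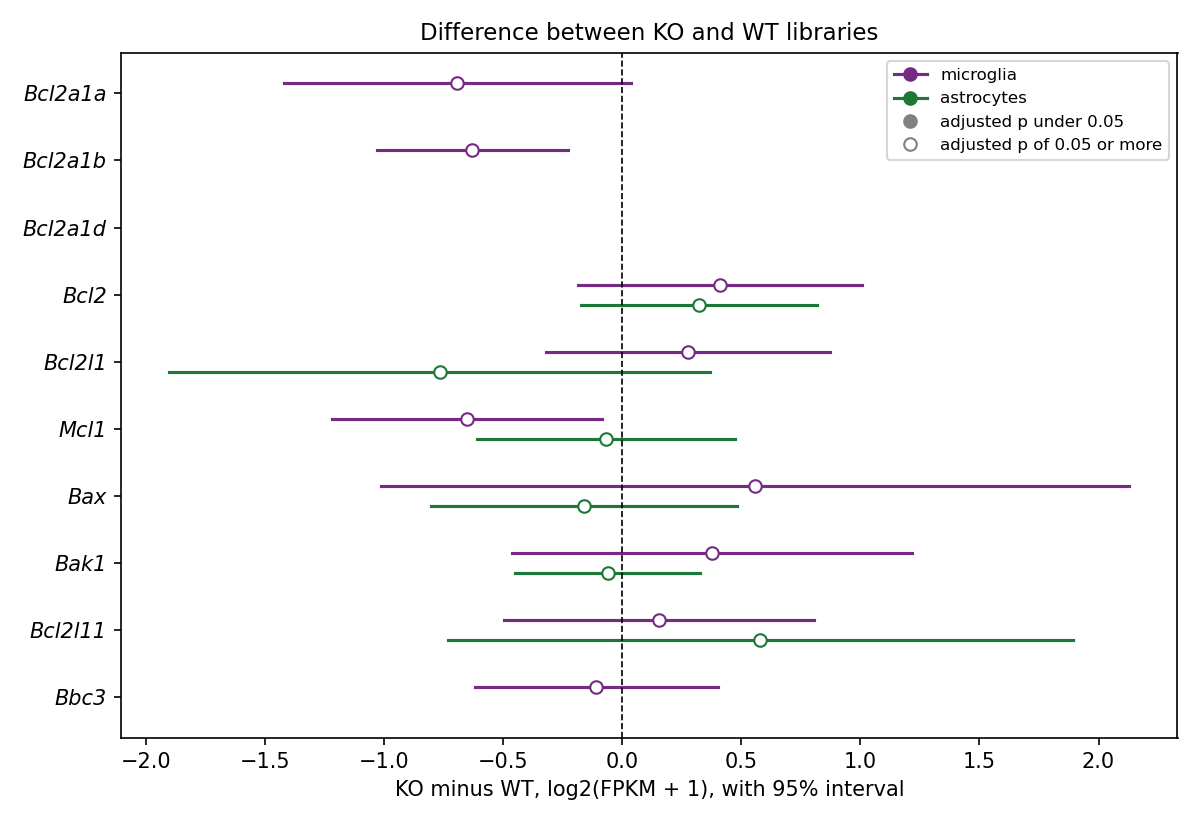
Difference between KO and WT (x axis, KO minus WT on log2(FPKM + 1), limma estimate with its 95% interval) for each gene (y axis), in microglia (purple) and astrocytes (green). Open circles have an adjusted p of 0.05 or more. In microglia the intervals of Bcl2a1b (-1.03 to -0.23) and Mcl1 (-1.22 to -0.09) lie below 0, and every circle is open.

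Other transcripts moved with these values in microglia. The 17 genes of the immediate-early and heat-shock response, which tissue dissociation induces, summed to 2864 to 3303 FPKM in KO microglia and 4416 to 6025 FPKM in WT microglia, all 17 were tested, and none was called by limma. The authors' test of counts listed Junb, Zfp36, Dusp1, Ier3 and Jun as lower and Egr3 as higher in KO microglia. Their adjusted p in that test lay between 0.000366 and 0.0359, and the other genes of this list were not listed. Without overlap 8 of the 17 were lower in KO and 1 was higher (Egr3, at a mean of 5.34 FPKM in KO and 0.474 FPKM in WT, named after its values were seen), where 7.48% of all genes were lower and 8.41% higher. Of 9 neutrophil markers, 7 were tested, none was called by limma, and 2 were lower and 0 higher without overlap, against the same shares of all genes. They summed to 55.2 to 118 FPKM in KO microglia and 131 to 261 FPKM in WT microglia, with the defining marker Ly6g at 0 in every microglia library. The 8 border macrophage markers summed to 755 to 865 FPKM in KO microglia and 826 to 1725 FPKM in WT microglia, and the 5 monocyte markers to 9.20 to 21.3 FPKM in KO and 8.80 to 36.5 FPKM in WT. The 7 oligodendrocyte markers ran the other way, at 1533 to 2522 FPKM in KO microglia and 1030 to 1760 FPKM in WT microglia. All 7 were tested, none was called by limma, and 4 were higher and 0 lower without overlap, against the same shares of all genes. The 6 neuron markers summed to 2.81 to 4.30 FPKM in KO microglia and 7.84 to 29.6 FPKM in WT microglia. Among the 483 genes the authors listed, the neutrophil marker S100a8 and the monocyte marker Ccr2 were lower in KO. The oligodendrocyte markers Cldn11 and Mag were listed as higher. The adjusted p of these 4 genes in the authors' test was 0.00600, 0.0278, 0.00343 and 0.0126. The authors also listed the neuron marker Snap25, the mural cell marker Kcnj8 and the astrocyte marker Gjb6 as lower in KO. The astrocyte marker Gfap was listed as higher. In the authors' test the adjusted p of these further markers lay between 0.0140 and 0.0409. The 7 lymphocyte markers reached at most 1.63 FPKM in KO and 2.01 FPKM in WT. The part of these transcripts in the values of Mcl1 and the Bcl2a1 genes was not tested, and the levels of Mcl1, the summed A1 copies and both leading lists are plotted per library.

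**Figure D4:**
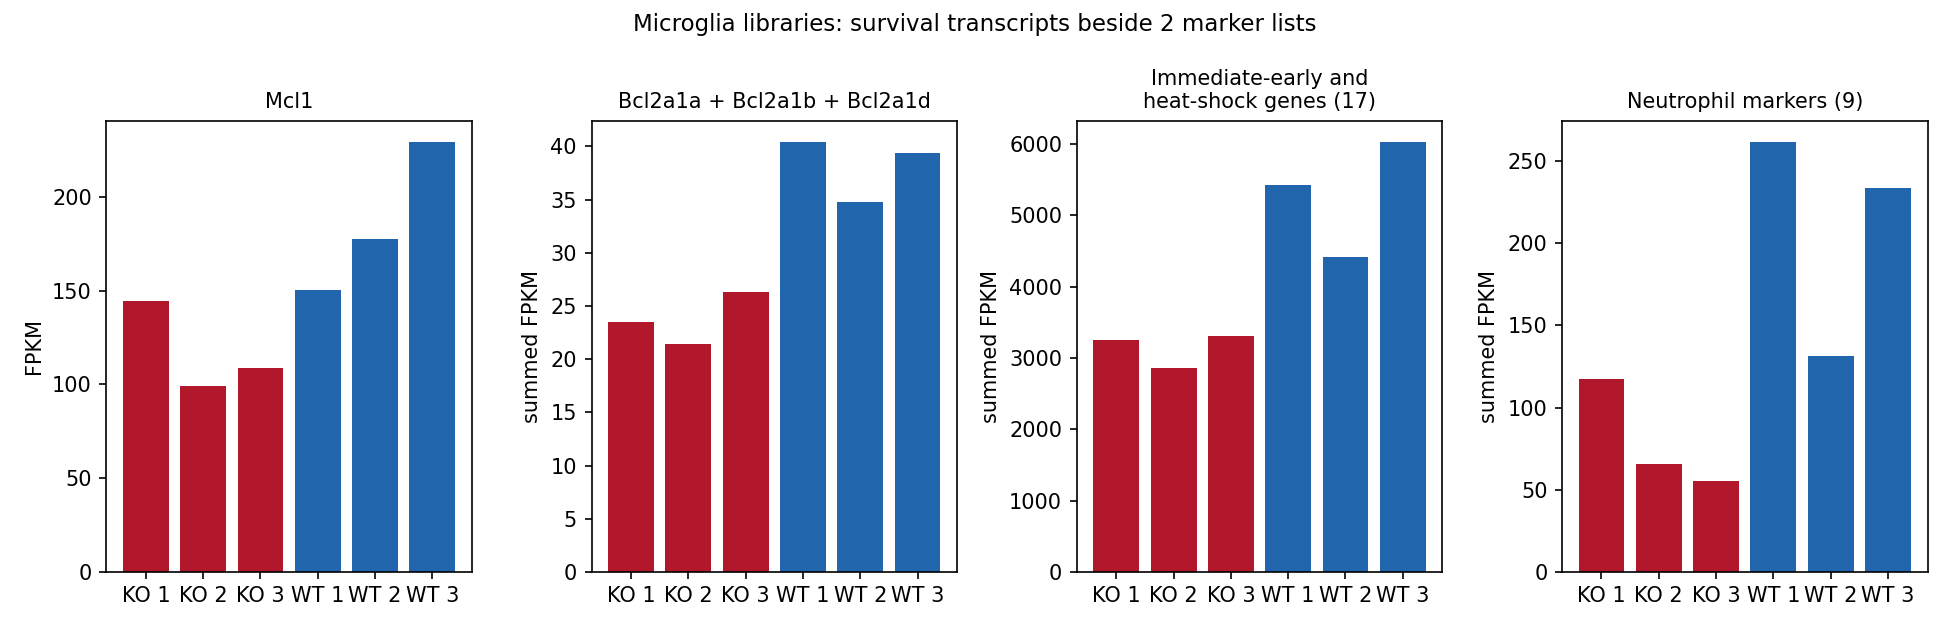
Level in each of the 6 microglia libraries (x axis; KO red, WT blue) of Mcl1, of the 3 A1 copies summed, of 17 immediate-early and heat-shock genes summed and of 9 neutrophil markers summed (y axes, FPKM from 0). In each panel all KO bars are lower than all WT bars, with Mcl1 at 99.1 to 144 FPKM in KO and 150 to 229 FPKM in WT.

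In astrocytes no family member was called between genotypes either. In the limma fit of the 7 astrocyte libraries with age as a covariate, 0 of 6 tested genes were called and 0 had an unadjusted p under 0.05, where 3 of 13397 genes (0.0224%) were called and 4.19% had an unadjusted p under 0.05. Bcl2 averaged 13.3 ± 1.83 FPKM in KO astrocytes (SD, n = 4) and 10.6 ± 1.46 FPKM in WT astrocytes (SD, n = 3). Its lowest KO library, at 11.97 FPKM, lay above its highest WT library, at 11.9 FPKM, and 2.32% of all genes were higher in KO without overlap. The difference was 0.32 (SE 0.21, limma adjusted p = 0.921), and the exact two-sided permutation p was 0.0857, where 4 against 3 libraries allow 0.0286. Bcl2l1 had the largest estimate, at -0.77 (95% interval -1.90 to 0.37), which was -0.38 without KO astrocytes library 4, the lowest at 2.04 FPKM. Mcl1, Bax and Bak1 lay between -0.16 and -0.06, and Bcl2l11, at 0.58, had an interval from -0.73 to 1.89.

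Whether the KO effect differs between cell types was tested as an interaction over all 13 libraries. None of the 9 tested genes was called by limma, where 23 of 16258 genes (0.141%) were, and 1 had an unadjusted p under 0.05, where 6.62% of all genes did. That gene was Bcl2a1b (-0.60, SE 0.25, unadjusted p = 0.0373, limma adjusted p = 0.751), which is at or near 0 in astrocytes of both genotypes. For Mcl1 the interaction was -0.58 (95% interval -1.32 to 0.16) and for Bcl2l1 1.04 (-0.23 to 2.32).

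Age was compared within astrocytes, with 1 day 9 library per genotype. By limma 0 of 6 tested genes were called and 0 had an unadjusted p under 0.05, where 13 of 13397 genes (0.097%) were called and 8.61% had an unadjusted p under 0.05. Bcl2 was at 16.0 FPKM at day 9 and 11.97 to 13.2 FPKM at day 12 in KO astrocytes, and at 11.9 FPKM at day 9 and 9.05 to 10.97 FPKM at day 12 in WT astrocytes. In both genotypes the day 9 library was the highest, and the difference of day 12 minus day 9 was -0.29 (95% interval -0.83 to 0.25). The other 5 genes lay between 0.05 and 0.48 on that scale.

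Summing by role shows how the family is balanced in each library. The 6 survival genes summed to 189, 141 and 155 FPKM in KO microglia and 208, 232 and 280 FPKM in WT microglia, and to 55.3 to 66.0 FPKM in KO astrocytes and 49.7 to 79.2 FPKM in WT astrocytes. The sums of KO and WT microglia did not overlap, and Mcl1 made up 69.9% to 76.4% of the sum in KO microglia and 72.1% to 81.7% in WT microglia. In astrocytes its share was 64.6% to 76.9% in KO and 63.0% to 73.7% in WT.

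The effectors Bax and Bak1 summed to 76.9, 89.7 and 84.4 FPKM in KO microglia and 86.9, 83.3 and 32.7 FPKM in WT microglia, against 115 to 130.2 FPKM in KO astrocytes and 112 to 149.7 FPKM in WT astrocytes. The ratio of survival to effector transcripts, which does not depend on the scaling of a library, was 2.46, 1.57 and 1.84 in KO microglia and 2.40, 2.79 and 8.57 in WT microglia, against 0.425 to 0.558 in KO astrocytes and 0.445 to 0.563 in WT astrocytes. Every microglia library had a ratio above 1.5 and every astrocyte library one below 0.6. KO and WT microglia overlapped, since KO library 1 lay above WT library 1, and the highest value belonged to WT library 3 with its low Bax and Bak1. The BH3-only genes summed to 40.9 to 43.8 FPKM in KO microglia and 32.4 to 53.0 FPKM in WT microglia, against 0.922 to 4.28 FPKM in KO astrocytes and 0.118 to 1.88 FPKM in WT astrocytes. With them added to Bax and Bak1, the ratio was 1.08 to 1.58 in KO microglia and 1.67 to 3.27 in WT microglia, without overlap. In astrocytes that ratio was 0.412 to 0.549 in KO and 0.440 to 0.563 in WT. No test was run on either ratio.

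**Figure D5:**
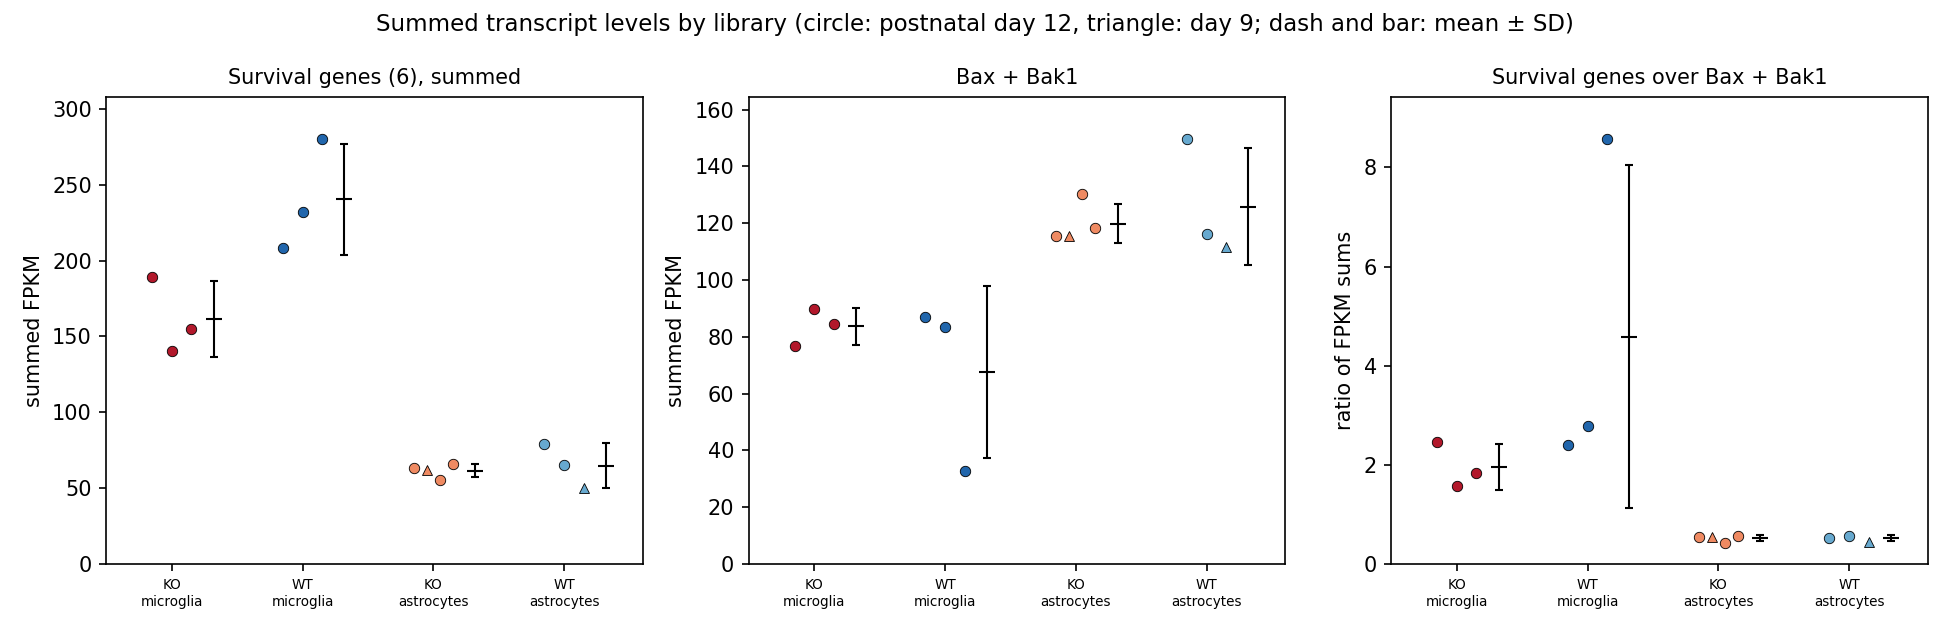
Summed FPKM of the 6 survival genes (left), of Bax and Bak1 (middle) and the ratio of these sums (right) in every library of the 4 groups (x axis), with mean ± SD as dash and bar, circles for day 12 and triangles for day 9. The ratio is 1.57 to 8.57 in microglia and 0.425 to 0.563 in astrocytes, and the highest point is WT microglia library 3.

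Genes that act around the family were taken from 4 lists. In KO against WT microglia, none was called by limma among 8 tested of 16 other BCL2 family genes (2 with an unadjusted p under 0.05), 26 of 28 caspases and apoptosome genes (2), 21 of 22 regulators of BCL2 family transcription and turnover (0) and 7 of 10 death receptor and necroptosis genes (0). Of all genes tested in microglia, 7.95% had an unadjusted p under 0.05. The median differences were 0.31, -0.01, 0.09 and 0.13, and 0.02 over all genes. In KO against WT astrocytes none was called among 8, 23, 20 and 4 tested genes of these lists, and the unadjusted p was under 0.05 for 0, 0, 1 and 0, where it was for 4.19% of all genes.

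Between cell types, many genes of these lists were called, as were many of all genes. In WT microglia against WT astrocytes, the other BCL2 family genes had 3 of 9 tested genes higher and 4 lower, the caspases and apoptosome genes 13 of 27 higher and 6 lower, the regulators 9 of 21 higher and 4 lower, and the death receptor genes 4 of 7 higher and 0 lower, where 29.1% of all genes were higher and 24.5% lower. In KO microglia against KO astrocytes the counts were 3 higher and 4 lower, 12 and 5, 10 and 2, and 5 and 0, where 31.9% of all genes were higher and 25.1% lower. Several of these counts, such as those of the other BCL2 family genes that were higher, are near the share of all genes. Some listed genes passed the filter through their level in microglia alone, such as Ripk3, which was listed at 0 in every astrocyte library. The counts of these lists are therefore a description. The most abundant genes of the lists show the range. Cflar, which encodes the caspase-8 inhibitor FLIP, averaged 274 FPKM in KO microglia and 341 FPKM in WT microglia, against 8.77 FPKM in KO astrocytes and 11.5 FPKM in WT astrocytes, with a second identifier of that symbol listed at 0 in all libraries. Vdac1, a channel of the outer mitochondrial membrane, ran the other way, at 33.5 FPKM in KO microglia and 39.5 FPKM in WT microglia, against 154 FPKM in KO astrocytes and 191 FPKM in WT astrocytes, and Vdac2 was at 65.7 and 56.1 FPKM in KO and WT microglia, against 76.2 and 93.2 FPKM in KO and WT astrocytes. The KO libraries of Vdac2 overlapped, at 62.3 to 68.2 FPKM in microglia and 54.1 to 99.0 FPKM in astrocytes.

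Among the regulators, Huwe1, the ubiquitin ligase that marks MCL1 for destruction, averaged 223 FPKM in KO microglia and 244 FPKM in WT microglia, against 129.6 FPKM in KO astrocytes and 174 FPKM in WT astrocytes. Its WT libraries overlapped, at 198 to 274 FPKM in microglia and 72.5 to 252 FPKM in astrocytes. Atf4, a factor of the integrated stress response, averaged 109 and 129 FPKM in KO and WT microglia, against 31.2 and 42.0 FPKM in KO and WT astrocytes. The p53 target Cdkn1a averaged 58.3 and 50.6 FPKM in KO and WT microglia, against 77.0 and 73.7 FPKM in KO and WT astrocytes. Its cell types overlapped in both genotypes, with libraries at 32.5 to 112 FPKM in KO astrocytes and 18.4 to 154.5 FPKM in WT astrocytes. Of the TNF receptors, Tnfrsf1b averaged 61.2 and 56.9 FPKM in KO and WT microglia and below 0.320 FPKM in both astrocyte groups, while Tnfrsf1a was found in all groups at 28.8 to 49.1 FPKM. Ripk1, a kinase downstream of these receptors, averaged 11.9 and 13.95 FPKM in KO and WT microglia, against 4.16 and 3.44 FPKM in KO and WT astrocytes. In the other BCL2 family list, the mitophagy receptor genes Bnip3l and Bnip3 averaged 29.3 and 10.7 FPKM in KO microglia, 20.9 and 8.72 FPKM in WT microglia, 44.9 and 22.8 FPKM in KO astrocytes and 38.3 and 20.6 FPKM in WT astrocytes. The KO libraries of Bnip3l overlapped between cell types. The BH3-only gene Bad averaged 16.0 and 17.3 FPKM in KO and WT microglia, against 31.7 and 21.8 FPKM in KO and WT astrocytes. Its cell types overlapped in both genotypes, with KO astrocyte libraries at 14.3 to 57.9 FPKM.

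The genes whose log2(FPKM + 1) followed a family member most closely over the 13 libraries, of 12392 ranked protein-coding genes, are given as a description, since the difference between cell types sets most of each correlation. For Bcl2a1b they were Neurl3 (Pearson r = 0.999), the interleukin-21 receptor gene Il21r (r = 0.998) and Gm10521 (r = 0.998). For Mcl1 they were Gm10563 (r = 0.985), the myeloid lectin gene Clec12a (r = 0.984) and Gm21833 (r = 0.983). For Bcl2 they were Txndc5, Purg and Neo1 (r = 0.990 each), which like Bcl2 were higher in astrocytes, with Neo1 at means of 4.46 and 3.57 FPKM in KO and WT microglia and 35.8 and 34.9 FPKM in KO and WT astrocytes.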

How the data were processed

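RNA of sorted cells was purified with TRIZOL, DNase and columns and made into libraries with NuGEN RNA-Seq V2, per the labels' protocols. Per the submitters' processing notes, which name build GRCm38, the tools were TopHat2 2.0.11 with Bowtie2 2.2.3, Cufflinks with Cuffnorm, HTSeq 0.6.1p1 with DESeq2, and FastQC. How strand was treated is, like settings and annotation, not given in the sources used here. Deposited FPKM cover 39171 genes and 13 libraries, and how the authors scaled libraries to each other is not stated. Per the file headers, the authors' table for each cell type holds a mean normalised signal per genotype, log2 ratios of WT over KO, a test score and p-values. No count test can be run on FPKM, and absolute depth is unknown. Relative depth was read from the lowest FPKM steps.

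Tests used limma 3.58.1 in R 4.3.3 (trend, two-sided) on log2(FPKM + 1), which understates changes of low genes, with genes at a mean of at least 1 FPKM in the fitted libraries and Benjamini-Hochberg adjustment over all of them. Scripts were tested on simulated data. Exact permutation tests of mean FPKM, sums and motif searches used Python 3.11.15. GENCODE release 21 on GRCm38 supplied coordinates, and 96.0% of identifiers matched. Bcl2a1a and Bcl2a1d matched by symbol only. Alternatives were another pseudocount, no filter, quantile normalisation, a replicate block, Xist or age as covariate, a fit of all libraries, leaving out libraries, and scaling to the protein-coding sum. Named genes were the 10 members, pathway genes called between genotypes or otherwise the 3 most abundant of each list, and 3 genes most correlated with each of Bcl2a1b, Bcl2 and Mcl1. The members and lists were chosen with earlier results of these data known.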

Additional observations from a re-analysis of the deposited data

Results flagged for a closer look

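Bax in KO astrocytes was at 28.3 FPKM in library 1, against 16.6, 17.4 and 17.2 FPKM in libraries 2, 3 and 4. The gap from library 1 to the next highest was 0.932 of the range of the group. Among the 6 genes at a mean of at least 1 FPKM in this group, the only one with 4 libraries, no other had a library this far from the rest. Chance alone would place about 1 in 20 such groups past the threshold of this flag, and 6 were tested.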

How the results depend on the processing

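No alternative brought a family member past the threshold between genotypes, in the interaction or between ages. Between cell types 7 or 8 members were called in each, where 7965 to 9988 of all genes were called in WT and 7973 to 11006 in KO. That count of members is a description, since it includes Bcl2a1a, Bcl2a1b and Bbc3, which are at or near 0 in astrocytes. Counts over all genes moved. Between KO and WT microglia 13 genes were called, against 25 with a pseudocount of 0.1, 7 with no filter, 37 in a fit of all 13 libraries, 258 with Xist as a covariate and 18 to 48 on leaving out 1 library. The fit with Xist rests on WT microglia library 3, the only WT microglia library with low Xist. Between KO and WT astrocytes 3 were called, against 5 with a pseudocount of 0.1, 0 with no filter, 7 in the fit of all libraries, 0 without the day 9 libraries and 0 to 8 on leaving out 1 library. For the interaction 23 were called, against 37 with no filter and 15 to 75 on leaving out 1 library. For day 12 against day 9, 13 were called, against 7 with a pseudocount of 0.1, 35 with no filter, 8 with the protein-coding sum and 6 to 82 on leaving out 1 library. Where an arm kept a single sample, that sample is assumed to vary like the other groups. The causes were not tested.

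Deviations of same-numbered libraries correlated at 0.012 to 0.028 in microglia, against -0.021 to -0.00045 for differently numbered ones. In astrocytes they correlated at -0.079 to 0.018, against -0.057 to 0.125 for differently numbered ones. All these values are small, and they do not settle whether the replicate numbers mark pairs. With the number as a replicate block, 3 genes were called between KO and WT microglia, 0 between KO and WT astrocytes, 14 in the interaction and 0 between ages, and Bak1 lost its call between KO microglia and KO astrocytes (-0.69, limma adjusted p = 0.125).

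Scaling libraries to an equal protein-coding sum was chosen after seeing the data. It called Bcl2l1 higher in WT microglia than in WT astrocytes (1.20, limma adjusted p = 0.0461) and ended both calls of Bak1. It reversed Bak1 in KO microglia against KO astrocytes (0.16) and Bax in WT microglia against WT astrocytes (0.020). Between genotypes it reversed Bbc3 in microglia (0.025) and in the interaction (0.015), and Mcl1 (0.0082) and Bak1 (0.016) in astrocytes. Between ages it reversed Bcl2l11 (-0.18), Mcl1 (-0.041) and Bak1 (-0.28). The Bak1 call between KO cell types also ended with no filter (limma adjusted p = 0.0737) and without the day 9 libraries (0.0788).

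Other values that changed sign were of genes not called. With Xist as a covariate Bcl2l11 was at -0.45 between KO and WT microglia, with quantile normalisation Bax was at -0.13 between KO microglia and KO astrocytes, and with a pseudocount of 0.1 Bcl2l11 was at -0.22 between ages. Leaving out 1 library at a time gave the other sign changes. Between KO and WT microglia Bbc3 ranged from -0.21 to 0.026 (higher without WT library 1), Bax from -0.18 (without WT library 3) to 0.96, and Bcl2l11 from -0.0096 (without WT library 2) to 0.43. Between KO and WT astrocytes Bak1 ranged from -0.13 to 0.047, Mcl1 from -0.26 to 0.13 and Bax from -0.33 to 0.046, each highest without WT library 1. Between microglia and astrocytes Bax ranged from -0.10 to 0.18 in KO and from -1.12 to 0.025 in WT. In the interaction Bbc3 ranged from -0.22 to 0.020, Bax from -0.024 to 1.12 and Bcl2l11 from -0.76 to 0.056. Between ages Bcl2l11 ranged from -0.32 to 0.38.

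Between KO and WT microglia, the difference of Mcl1 ranged over all alternatives from -0.998 to -0.49 (limma adjusted p 0.191 to 0.955) and that of Bcl2a1b from -0.77 to -0.50 (adjusted p 0.184 to 0.955). Bax ranged more widely, from -0.18 to 2.16 (limma adjusted p 0.0613 to 0.955). Bak1 ranged from 0.016 to 1.16 (limma adjusted p 0.130 to 0.981). Both upper ends lie above the values from leaving out 1 library, which reached 0.96 for Bax and 0.59 for Bak1. Leaving out WT microglia library 1 moved Bcl2a1a to -0.47. Shallower astrocyte libraries give noisier low values, and a value of 0 there does not show that a transcript is absent. The 0 values of Slc1a2 show that a listed 0 can also fall in a gene that is high in other libraries of its group.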

Other observations

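The microRNA gene Mir3473f lies within Bcl2 on the same strand and outside its exons. It was listed at a mean of 38.9 FPKM in KO microglia and 96.3 FPKM in WT microglia, and at 2.16 FPKM in KO astrocytes and 1.76 FPKM in WT astrocytes, an order between cell types opposite to that of Bcl2. No test was run on it.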
